A study of Drosophila melanogaster with 36 samples.

Results

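The takeout family comprises genes that encode secreted proteins with the domain of haemolymph juvenile hormone binding proteins. Of 4 such genes chosen by symbol, takeout (to), daywake (dyw), Jhbp1 and Jhbp2, 3 had an element in the probe table used here, among 10487 genes tested in all. No element listed to, which was therefore not analysed here. dyw (CG2650) lies on the X chromosome, and Jhbp1 (CG1124) and Jhbp2 (CG2016) are neighbours on chromosome arm 3R. The genes were picked with earlier results of these arrays known: dyw had a large difference between the mutant strains, and Jhbp2 had large differences between each mutant strain and the wild type. Their strain differences are therefore given as a description, with no test.

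Transcript ratios were measured in adult Drosophila melanogaster on 36 arrays of 2 colours. The wild-type strain was Oregon[R]. The strain Antennapedia[73b] carries an allele of the homeotic gene Antennapedia, some alleles of which replace antennae by legs, and apterous[56f] carries an allele of apterous, a homeodomain gene needed for wings. Flies of all strains came from a commercial supplier, were frozen and had no treatment named in the labels. Neither sex, age nor the count of separate RNA extractions is named there, so SEs and p-values cover the spread from array to array alone, which may be technical. Between 26362 and 30716 of 31464 spots had a value on an array.

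In moths, haemolymph juvenile hormone binding proteins carry juvenile hormone, a lipid hormone that in adult insects acts on egg production and behaviour, from its gland to the tissues. Proteins of the takeout family share this fold, with a long hydrophobic pocket, and in Drosophila the ligands of most of them are not known. The gene to follows the circadian clock, responds to starvation and acts in feeding and male courtship. dyw lies tail to tail with the clock gene period (per) and favours wakefulness in daytime.

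Each ordered pair of strains was hybridised on 4 arrays, which makes 9 groups. A strain was hybridised with itself in 3 of the groups (12 arrays), and the other groups (24 arrays) held 2 different strains, each pair in both colour orientations. The deposited values are signed fold ratios between the channels with 1 decimal, so the smallest step next to an equal signal was 0.14 on the log2 scale. The labels leave out whether a positive ratio stands for channel 1 or channel 2. Log2 ratios were coded as channel 1 over channel 2. If this coding is right, the plus side means that the strain named first had the higher transcript level, and otherwise the lower one. The order of the strains along an axis holds either way, but its direction does not. Strain differences were fitted with limma over all 36 arrays with a term for the dye offset, which is the ratio left when both channels hold the same strain. In RNA of flies, fewer cells of a type and less RNA per cell cannot be told apart. All 3 genes had a value on all 36 arrays.

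The widest range between strains belonged to dyw, whose 3 strains lay in the order Antennapedia[73b], Oregon[R], apterous[56f] along the log2 axis. With Antennapedia[73b] in channel 1 and apterous[56f] in channel 2, the log2 ratios of dyw were -1.51, -0.76, -1.48 and -1.02. With these strains exchanged they were 0.81, 1.30, 1.43 and 1.69. Every array thus set the mutant strains apart by more than any of the 12 self-hybridised arrays, which ran from -0.14 to 0.37. The fitted difference of Antennapedia[73b] against apterous[56f] was -1.24 (SE 0.0681), or 2.36-fold.

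Against the wild type, the mutant strains lay on opposite sides for dyw. With apterous[56f] in channel 1 and Oregon[R] in channel 2 the log2 ratios were 0.80, 1.07, 1.48 and 1.24. With Oregon[R] in channel 1 they were -0.38, -0.63, -0.96 and -0.71, so the orientations did not overlap. The difference of apterous[56f] against Oregon[R] was 0.92 (SE 0.0681), or 1.89-fold, and all 8 direct arrays showed its side.

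The difference of dyw between Antennapedia[73b] and Oregon[R] was smaller. With Antennapedia[73b] in channel 1 the log2 ratios were -0.29, -0.14, -0.53 and 0.26, and with Oregon[R] in channel 1 they were 0.63, 0.14, 0.43 and 0.63. The orientations overlapped by 1 array, array 65 at 0.26, on which this pair of strains showed the opposite side from the other 3 arrays of its group. The difference was -0.32 (SE 0.0681), or 1.25-fold, and it was -0.37 without array 65. After the dye offset was taken off, 7 of 8 direct arrays lay on the minus side, among them array 51 at a rounded 0.00.

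Jhbp2 showed another order, with Antennapedia[73b] at one end, apterous[56f] close to it and Oregon[R] far off at the other end. With Antennapedia[73b] in channel 1 and Oregon[R] in channel 2 its log2 ratios were -1.53, -1.56, -1.46 and -1.54. With Oregon[R] in channel 1 they were 0.54, 1.00, 0.54 and 0.53. The first orientation was the tighter one (mean -1.52 ± 0.04, SD, n = 4, against 0.65 ± 0.23, SD, n = 4), and the orientations were far from overlapping. The difference was -1.10 (SE 0.055), or 2.15-fold.

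In apterous[56f] against Oregon[R], Jhbp2 lay on the same side. The log2 ratios were -1.23, -1.32, -1.56 and -1.79 with apterous[56f] in channel 1, and 0.26, 0.31, 0.44 and 0.13 with Oregon[R] there. The difference was -0.87 (SE 0.055), or 1.82-fold, with the same side in 8 of 8 direct arrays. These comparisons share the Oregon[R] arrays in the fit, so their values are not independent.

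Between the mutant strains the ratios of Jhbp2 were nearer to each other. They were -0.48, -0.58, -0.48 and -1.07 with Antennapedia[73b] in channel 1, and -0.07, 0.00, -0.31 and -0.24 with apterous[56f] in channel 1. All of these are at or below 0 because the gene had a strong dye offset, but the orientations did not overlap. The difference of Antennapedia[73b] against apterous[56f] was -0.23 (SE 0.055), or 1.18-fold, and lay on the minus side in 8 of 8 direct arrays once the offset was taken off. Arrays 58 and 60 then stood at only -0.02 each, under 1 rounding step. With the offset left in, 4 of the 8 arrays lay on the minus side.

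**Figure D1:**
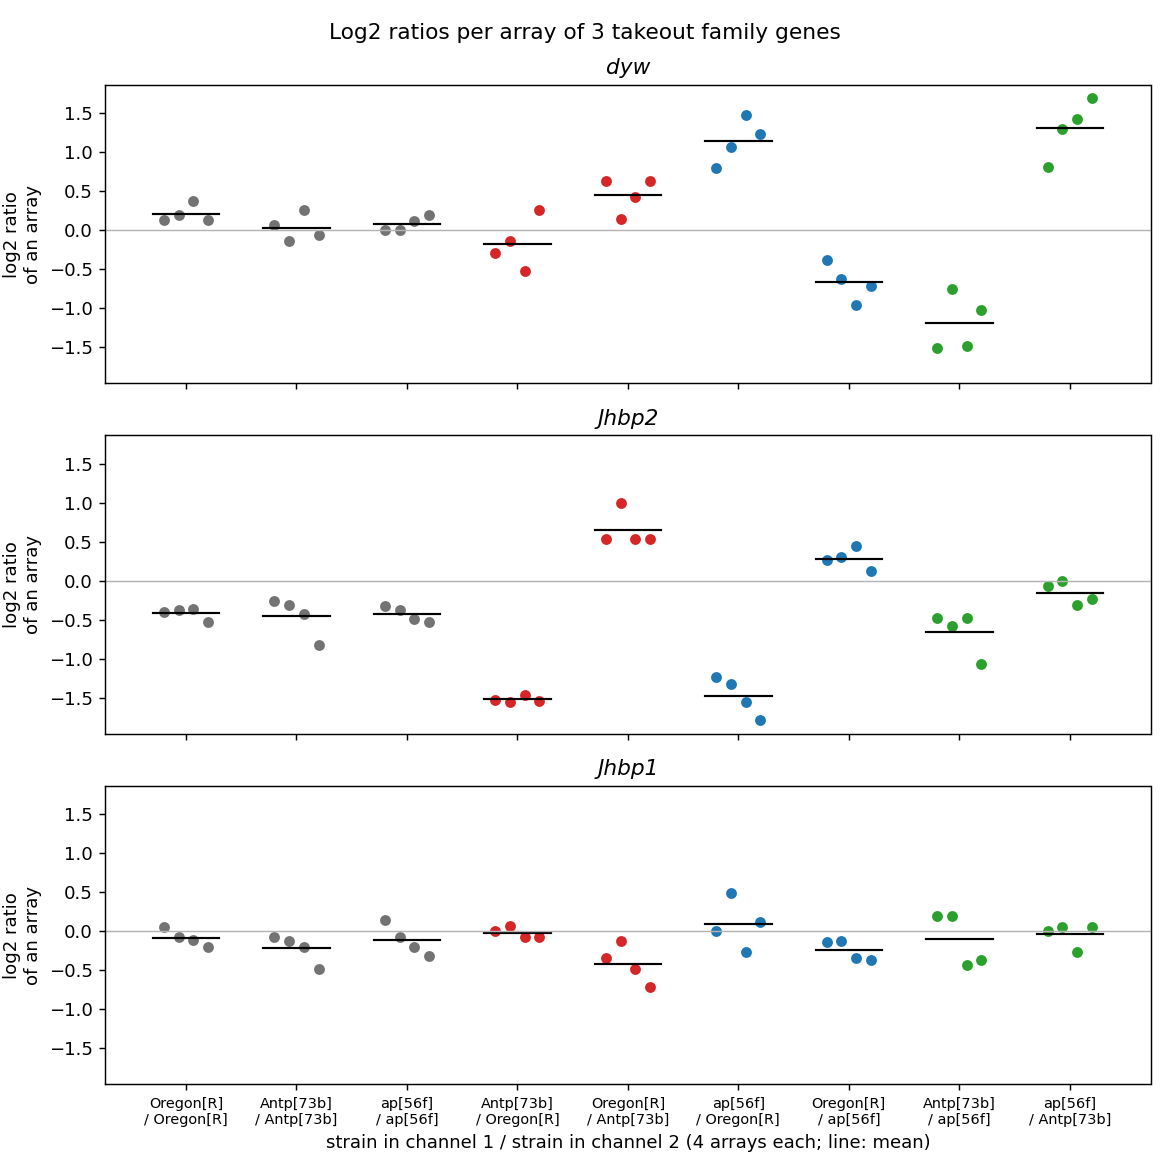
Log2 ratio of each array (y axis) for dyw, Jhbp2 and Jhbp1 in the 9 groups (x axis, strain in channel 1 over strain in channel 2), with points in the order of array number and a line at the mean of 4 arrays. dyw spans -1.51 to 1.69, Jhbp2 spans -1.79 to 1.00 around a self-hybridised mean of -0.43, and Jhbp1 stays between -0.72 and 0.49.

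Jhbp1, the gene beside Jhbp2, had the smallest range between strains of the 3 genes. Its 36 log2 ratios ran from -0.72 to 0.49, and the 12 self-hybridised arrays alone ran from -0.48 to 0.14. With Antennapedia[73b] in channel 1 and Oregon[R] in channel 2 the ratios lay between -0.07 and 0.07, and with these exchanged between -0.72 and -0.13. With apterous[56f] in channel 1 and Oregon[R] in channel 2 they lay between -0.26 and 0.49, which overlapped the reverse orientation at -0.37 to -0.13.

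The fitted differences of Jhbp1 were 0.18 (SE 0.0586) for Antennapedia[73b] and 0.19 (SE 0.0586) for apterous[56f] against Oregon[R], both little more than 1 rounding step of the deposited values. Between the mutant strains the difference was -0.01 (SE 0.0586), with a 95% interval from -0.12 to 0.11. On the largest single array, number 53, the log2 ratio was -0.72, and without it the difference of Antennapedia[73b] against Oregon[R] was 0.14.

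**Figure D2:**
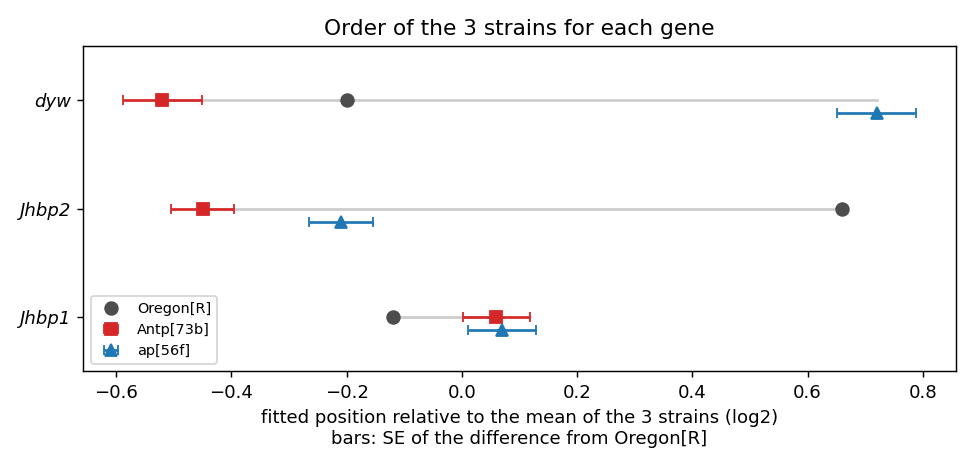
Fitted position of each strain relative to the mean of the 3 strains (x axis, log2) for each gene, with bars for the SE of the difference from Oregon[R]. For dyw the positions were -0.52, -0.20 and 0.72 for Antennapedia[73b], Oregon[R] and apterous[56f]; for Jhbp2 they were -0.45, 0.66 and -0.21; for Jhbp1 they span 0.19.

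By the threshold used for all elements on the arrays (limma adjusted p under 0.05), 3 of 3 genes passed in Antennapedia[73b] against Oregon[R], where 22.0% of 14866 elements did, and 3 of 3 in apterous[56f] against Oregon[R], where 15.7% did. In Antennapedia[73b] against apterous[56f] 2 of 3 passed, beside 15.3% of all elements. Nothing is read from these counts, since the genes were chosen with these comparisons in view. Jhbp1 no longer passed in Antennapedia[73b] against Oregon[R] without array 52 (0.16, SE 0.0614) or array 53 (0.14, SE 0.0587), nor in apterous[56f] against Oregon[R] without array 67 (0.15, SE 0.0588). In neither comparison did Jhbp1 pass without a dye term, in the 8 direct arrays alone or with the first spot alone. The same held in the last 2 arrays of each group and in even-numbered arrays. Jhbp1 also failed in odd-numbered arrays for Antennapedia[73b] and in the first 2 arrays for apterous[56f]. Jhbp2 no longer passed in Antennapedia[73b] against apterous[56f] without a dye term (-0.23, SE 0.137), in the last 2 arrays of each group or in even-numbered arrays, and dyw no longer passed in Antennapedia[73b] against Oregon[R] in odd-numbered arrays (-0.20, SE 0.0813). By size, dyw ranked 20 of 14866 in Antennapedia[73b] against apterous[56f] and 24 in apterous[56f] against Oregon[R]. Jhbp2 ranked 42 in Antennapedia[73b] against Oregon[R] and 28 in apterous[56f] against Oregon[R]. Jhbp1 was larger in size than 82.5% of elements in Antennapedia[73b] against Oregon[R], 89.1% in apterous[56f] against Oregon[R] and 7.65% in Antennapedia[73b] against apterous[56f].

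The dye offset and the agreement of direct with indirect routes were not used to choose these genes, and were tested. Jhbp2 had an offset of -0.46 (SE 0.0317, limma adjusted p = 1.55e-17), seen on all 12 self-hybridised arrays, which ran from -0.83 to -0.26. The offsets of dyw and Jhbp1 were 0.13 (SE 0.0393, limma adjusted p = 0.00309) and -0.13 (SE 0.0339, limma adjusted p = 0.00113). Such offsets were common, with 61.2% of elements past the threshold, and that of Jhbp2 was larger in size than 98.8% of all 14866 elements. For this reason its ratios differ in size between orientations, and a mean over 1 orientation would misstate the strain difference by about the offset.

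Direct and indirect routes between the strains gave like values. For dyw in Antennapedia[73b] against apterous[56f], the direct arrays gave -1.25 and the route through Oregon[R] gave -1.22. For Jhbp2 in Antennapedia[73b] against Oregon[R] the values were -1.09 and -1.13. Going around the triangle of strains, the direct differences summed to 0.03 (SE 0.148) for dyw, 0.05 (SE 0.117) for Jhbp2 and 0.07 (SE 0.127) for Jhbp1, and limma adjusted p was 0.999 for each. Over all elements limma called 0 (0.00%) for this sum, with 542 (3.65%) at an unadjusted p under 0.05. The duplicate spots of an element correlated over the 36 arrays with r = 0.938 for dyw and r = 0.941 for Jhbp2, and with r = 0.556 for Jhbp1, whose ratios cover a narrower range. The largest gap between both spots was 0.88 for dyw (array 56), 0.61 for Jhbp2 (array 61) and 0.75 for Jhbp1 (array 40).

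The labels name no batch, so the arrays were also divided by their place in a group and by the parity of their number. Within the first 2, last 2, even-numbered and odd-numbered arrays, the difference of dyw in Antennapedia[73b] against apterous[56f] was -1.07, -1.41, -1.33 and -1.15. Its difference in apterous[56f] against Oregon[R] was 0.74, 1.09, 0.88 and 0.95, and that in Antennapedia[73b] against Oregon[R] was -0.32, -0.32, -0.45 and -0.20. In each division the order of the strains for dyw was the same. This is a description, since dyw was chosen on these same arrays and the divisions by place and by parity share arrays.

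For Jhbp2 the values in these divisions were -1.12, -1.09, -1.02 and -1.18 in Antennapedia[73b] against Oregon[R], and -0.82, -0.91, -0.87 and -0.86 in apterous[56f] against Oregon[R]. In Antennapedia[73b] against apterous[56f] they were -0.29, -0.18, -0.14 and -0.32. Jhbp1 kept the plus side against Oregon[R] in each of them, from 0.15 to 0.21 for Antennapedia[73b] and from 0.10 to 0.28 for apterous[56f], and lay on either side, from -0.07 to 0.05, between the mutant strains.

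Apart from Jhbp2 itself, the genes beside dyw, Jhbp1 and Jhbp2 had differences of at most 0.52 in size. The clock gene per overlaps the end of dyw in the RefSeq gene table, and no source used here gives the strand that the elements detect, so transcripts of the overlap could count for either gene. The differences of per were -0.12 (limma adjusted p = 0.198), -0.02 (0.877) and -0.10 (0.335) in Antennapedia[73b] against Oregon[R], apterous[56f] against Oregon[R] and Antennapedia[73b] against apterous[56f]. On the other side of dyw, Spg7, a mitochondrial protease gene, stood at -0.02, -0.18 and 0.16, with limma adjusted p of 0.814, 0.0157 and 0.0378.

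Jhbp3, Jhbp2 and Jhbp1 follow each other on arm 3R, and their fitted values had different orders of strains. Jhbp3 lay on the plus side in Antennapedia[73b] against Oregon[R] (0.42, SE 0.0514, limma adjusted p = 4.68e-09) and against apterous[56f] (0.52, SE 0.0514, limma adjusted p = 1.87e-11). In apterous[56f] against Oregon[R] it stood at -0.10 (limma adjusted p = 0.207). Antennapedia[73b] was thus at one end for Jhbp3 and for Jhbp2, but on opposite sides of Oregon[R]. The gene beyond Jhbp1, CG14662, had values on 29 arrays and stood at 0.21 in Antennapedia[73b] against Oregon[R] (limma adjusted p = 0.0204), beside 0.18 for Jhbp1. In apterous[56f] against Oregon[R] it stood at 0.05 (limma adjusted p = 0.675), beside 0.19 for Jhbp1, and in Antennapedia[73b] against apterous[56f] at 0.16 (limma adjusted p = 0.129), beside -0.01. Shared signal between related genes was not tested, since element sequences were not used here.

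**Figure D3:**
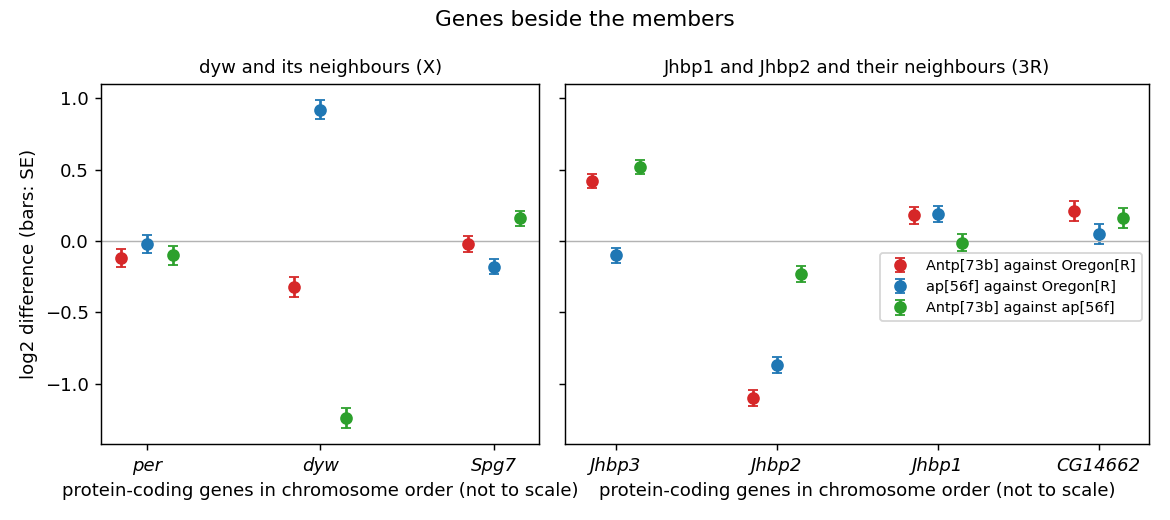
Log2 difference (y axis, bars are SE) of dyw, Jhbp1 and Jhbp2 and of the protein-coding genes beside them in chromosome order (x axis, not to scale) in the 3 comparisons. dyw at 0.92 and -1.24 stands between per and Spg7, whose values lie within -0.18 and 0.16; Jhbp2 at -1.10 stands between Jhbp3 at 0.42 and Jhbp1 at 0.18 in Antennapedia[73b] against Oregon[R].

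A wider list of the family held 24 other genes, of which 19 were tested. Of the 24, 12 carry a Jhbp number in the RefSeq gene table (10 tested) and 12 do not (9 tested). The place of the latter in the family was taken from memory and could not be checked by sequence here. The list was drawn up with earlier results known, in which CG7953 and CG10680 had been named for their size. Both are counted in the calls below, but their values are given as a description without a p-value. Most members of the list have no known function. In Antennapedia[73b] against Oregon[R], 4 lay on the plus and 4 on the minus side past the threshold, beside 12.6% and 10.8% of all genes. The median of the list was 0.05, and that of all genes 0.00. The largest values belonged to Jhbp11 (0.57, limma adjusted p = 3.71e-14), CG7953 (0.57), CG10680 (-0.57), CG8997 (0.47, limma adjusted p = 3.45e-08) and Jhbp3 (0.42).

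In apterous[56f] against Oregon[R], 6 of the 19 lay on the plus and 5 on the minus side, beside 6.88% and 8.93% of all genes. The median was 0.00 for the list and -0.02 for all genes. On the minus side were CG7953 (-1.14), CG10680 (-0.82), CG8997 (-0.53), CG33306 (-0.47) and CG7916 (-0.30). None of these carries a Jhbp number, so the whole minus side rests on genes whose place in the family was not checked. On the plus side Jhbp7, the neighbour of to, stood at 0.44 (limma adjusted p = 2.01e-09), and Jhbp14 at 0.39 (limma adjusted p = 8.14e-09). Among the 10 genes with a Jhbp number, 3 were on the plus and 0 on the minus side in limma, and the other 7 ran down to -0.10.

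Between the mutant strains, 7 of the 19 lay on the plus and 6 on the minus side, beside 11.1% and 5.43% of all genes. On the plus side were CG7953 (1.71), CG8997 (1.00, limma adjusted p = 1.16e-18), Jhbp3 (0.52) and CG7916 (0.40). On the minus side, with dyw, were Jhbp7 (-0.35, limma adjusted p = 4.35e-07), CG14259 (-0.35, limma adjusted p = 3.2e-06) and Jhbp14 (-0.28). Over all elements, 66.3% of calls were on the plus side here and 44.2% in apterous[56f] against Oregon[R], but 50.8% and 54.1% after each array was centred on a trimmed mean. The family calls numbered 13 and 11 under either centring.

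Over the 3 comparisons, 5 of the 19 genes passed in all, 8 passed in 2, 1 passed in 1 and 5 passed in none. Those that passed nowhere were Jhbp4, Jhbp12, Jhbp13, Jhbp15 and CG14258. The same tally was not made over all genes, so there is no background share to set beside it. In the fit each comparison also follows from the other 2, so passing in several is not independent. Nothing about the family is read from this tally. The pattern of dyw, with the mutant strains on opposite sides of Oregon[R], had a mirror image in CG7953 (0.57 and -1.14) and CG8997 (0.47 and -0.53). As for Jhbp2, both mutant strains lay on the minus side of Oregon[R] for CG10680 (-0.57 and -0.82) and CG33306 (-0.20 and -0.47). In Antennapedia[73b] against apterous[56f], however, these lay on the plus side (0.26 and 0.27) and Jhbp2 at -0.23, so the order of the strains was another one. Jhbp11 had both mutant strains on the plus side (0.57 and 0.25). CG33306, CG8997, CG7916 and CG7953 follow each other on arm 2L, and all of them lay on the minus side in apterous[56f] against Oregon[R] and on the plus side in Antennapedia[73b] against apterous[56f]. In Antennapedia[73b] against Oregon[R] they did not move as one, since CG33306 lay on the minus side (limma adjusted p = 0.00108) and CG7916 did not pass (0.10, limma adjusted p = 0.255). The list was drawn up with earlier results known, in which CG7953 and CG10680 had been named for their size.

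**Figure D4:**
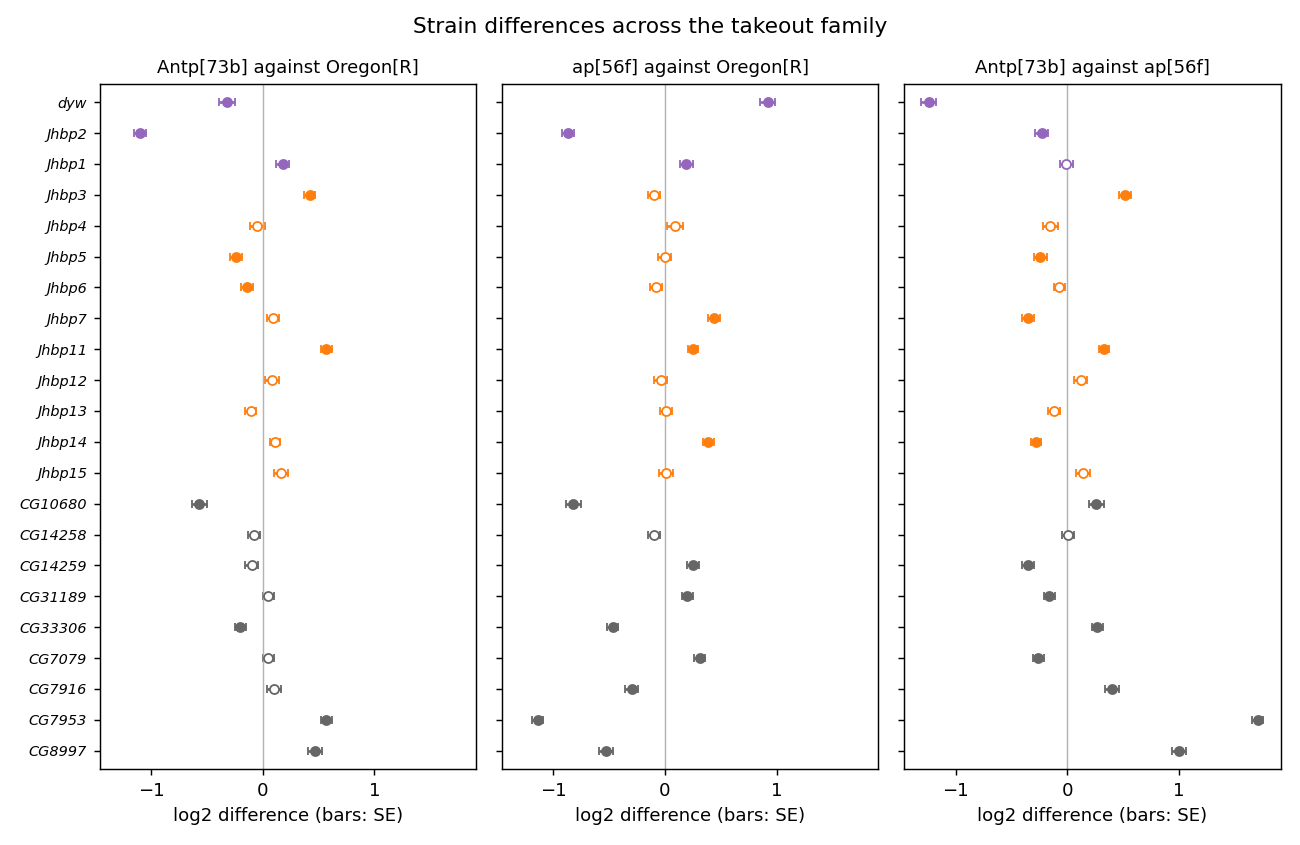
Log2 difference (x axis, bars are SE) of dyw, Jhbp2 and Jhbp1 (purple), 10 other genes with a Jhbp number (orange) and 9 listed genes without one (grey) in the 3 comparisons. Filled points passed a limma adjusted p of 0.05, which for the purple ones and for CG7953 and CG10680 is a description. The values run from -1.24 for dyw to 1.71 for CG7953 in the right panel.

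Genes that make, break down or answer to juvenile hormone had differences of at most 0.36. Of 10 tested, 1 lay on the plus and 2 on the minus side in Antennapedia[73b] against Oregon[R], and 1 and 1 in apterous[56f] against Oregon[R]. Among all genes 12.6% were on the plus and 10.8% on the minus side in the first comparison, and 6.88% and 8.93% in the second, so these counts lie near the background. The gene on the plus side in each was Kr-h1, a zinc finger gene induced by the hormone (0.36, limma adjusted p = 7.83e-06, and 0.34, limma adjusted p = 3.16e-05). Met, which encodes a hormone receptor, lay on the minus side in each (-0.22, limma adjusted p = 0.00648, and -0.19, limma adjusted p = 0.0274). Between the mutant strains 1 of the 10 passed, Fkbp39 at -0.18 (limma adjusted p = 0.00272), where 11.1% of all genes were on the plus and 5.43% on the minus side.

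Of 11 clock genes tested, 4 lay on the plus side in Antennapedia[73b] against Oregon[R] and 0 on the minus side, beside 12.6% and 10.8% of all genes. They were tim (0.43, limma adjusted p = 1.32e-09), the partner of per, and the transcription factors vri (0.31), Pdp1 (0.27) and cwo (0.20). The same 4 lay on the plus side in Antennapedia[73b] against apterous[56f], beside 11.1% of all genes, and 0 of the 11 on the minus side, beside 5.43%. There tim stood at 0.34 (limma adjusted p = 1.12e-06) and cwo at 0.40 (limma adjusted p = 7.46e-06). In apterous[56f] against Oregon[R], where dyw was 0.92, 1 of the 11 passed, cwo at -0.20 (limma adjusted p = 0.0284), beside 6.88% of all genes on the plus and 8.93% on the minus side. The labels give no time of day for the freezing of the flies.

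Genes expressed in 1 sex or in single organs differed between the strains as well. The shares of all genes to set beside them are 12.6% plus and 10.8% minus in Antennapedia[73b] against Oregon[R], 6.88% and 8.93% in apterous[56f] against Oregon[R], and 11.1% and 5.43% in Antennapedia[73b] against apterous[56f]. Of 14 egg shell and yolk genes, which are expressed in females, 12 lay on the minus side in Antennapedia[73b] against Oregon[R] (median -0.79) and 14 in apterous[56f] against Oregon[R] (median -0.53), the side of Jhbp2. The male list held 14 tested genes of the accessory gland, ejaculatory duct or ejaculatory bulb. Of these, 7 and 11 lay on the minus side in the same comparisons (medians -0.22 and -0.32) and 1 on the plus side in each. Of 9 fat body genes, 6 and 5 lay on the plus side and 0 and 1 on the minus side in limma, with fit at 1.45 and 0.49 and medians of 0.25 and 0.20. Of 19 genes of antennae and other chemosensory organs, 4 lay on the plus and 5 on the minus side in Antennapedia[73b] against Oregon[R], with 4 and 3 in apterous[56f] against Oregon[R] and 7 and 4 in Antennapedia[73b] against apterous[56f]. Between the mutant strains the egg shell and yolk list had 9 on the minus and 2 on the plus side (median -0.29), the latter both yolk protein genes. The male list had 6 on the plus side (median 0.10) and the fat body list 5 plus and 2 minus (median 0.21). The part of these organs in the values of Jhbp2 and dyw was not tested; ratios give no level of a marker, so neither the make-up of the flies nor the tissue could be read from them.

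The genes whose ratios were most like those of each member over the 36 arrays were looked up among 9206 genes with a value on every array. For Jhbp2 they were Cp38, a gene of the egg shell (r = 0.959), Tapdelta, of protein entry into the secretory pathway (0.943), CG4734 (0.937), the small heat shock gene Hsp26 (0.932) and yl, the yolk receptor (0.925). Cp38 stood at -1.16, -0.81 and -0.35 in Antennapedia[73b] against Oregon[R], apterous[56f] against Oregon[R] and Antennapedia[73b] against apterous[56f], beside -1.10, -0.87 and -0.23 for Jhbp2. For dyw they were Jon99Ci, a gut serine protease (r = 0.936), CG12998 (0.916), the cuticle protein gene Cpr97Eb (0.889), Sclp (0.886) and CG18179 (0.875). Jon99Ci stood at -0.35, 0.65 and -1.0, beside -0.32, 0.92 and -1.24 for dyw.

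For Jhbp1 the correlations were lower, led by Xport-A, a gene for the transport of light-sensing proteins in photoreceptors (r = 0.756), Slob (0.736), Tsp42Eh (0.735), Osi18 (0.734) and Est-Q (0.729). Between the genes themselves r was -0.098 for dyw with Jhbp2, 0.141 for dyw with Jhbp1 and -0.399 for Jhbp1 with Jhbp2. All of these are descriptions over 36 arrays that share 3 strains, so that a gene with the same order of strains has a high r whatever its function.

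**Figure D5:**
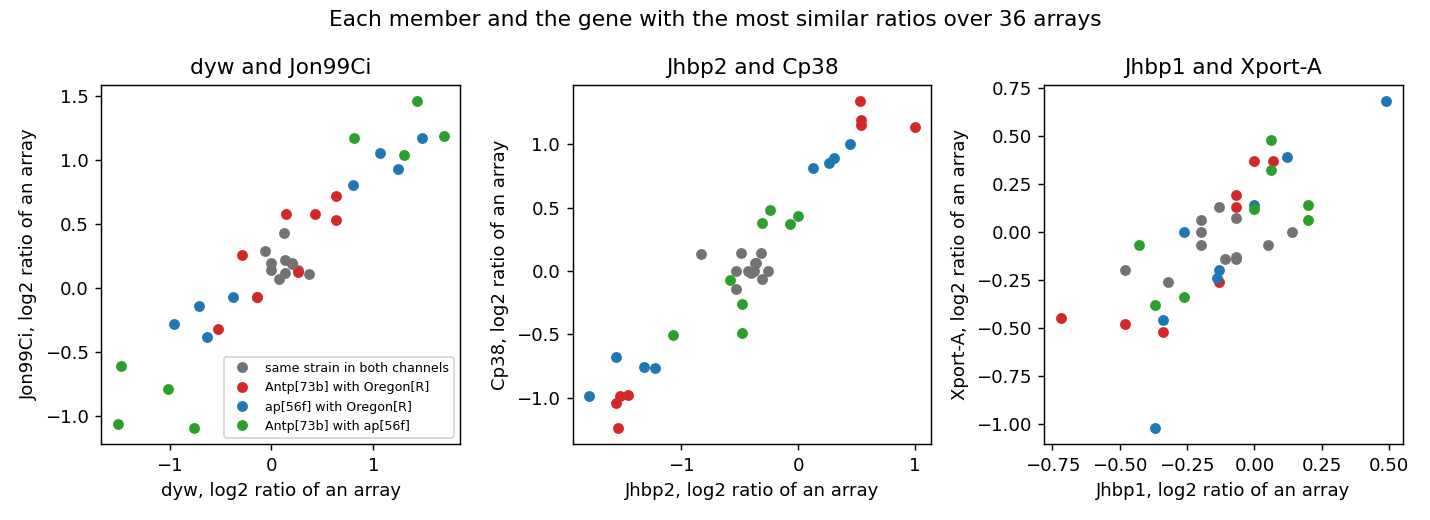
Log2 ratio of an array for each member (x axis) and for the gene with the most similar ratios (y axis), 1 point per array and colours by the strains hybridised. The points of Jhbp2 with Cp38 (r = 0.959) and dyw with Jon99Ci (r = 0.936) follow a line from one orientation to the other, and those of Jhbp1 with Xport-A (r = 0.756) scatter more widely.

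Of the genes that name the strains, Antp stood at 0.14 in Antennapedia[73b] against Oregon[R] (limma adjusted p = 0.099) and at 0.11 against apterous[56f] (0.252). The gene ap passed the threshold in apterous[56f] against Oregon[R] (0.27, limma adjusted p = 0.00293) and in Antennapedia[73b] against apterous[56f] (-0.20, limma adjusted p = 0.029). The part of either gene that its element covers was not looked up, so they do not check the labels.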

How the data were processed

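Poly(A)-selected RNA of adult flies of 3 strains was made into cDNA carrying Cy3 (channel 1) or Cy5 (channel 2) and read with a GenePix 4000A, per the labels. The sources used here name no later step of the authors. Values are signed fold ratios, 1 for each spot, a unit read from the deposited values: 0 of 1059750 lay between -1 and 1. Log2 ratios were centred on each array's median over its spots, and both spots of an element were averaged. The median ratio was of size 1 on 32 arrays, which the centring left unchanged, so it moved only the other 4. The table held 0 columns of other samples.

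Elements with values on at least 2 arrays of each group were kept (14866 of 15732). R 4.3.3 and limma 3.58.1 fitted a dye intercept and strain terms coded 1 and -1 by channel over all 36 arrays, two-sided, with Benjamini-Hochberg adjustment over all elements and a threshold of 0.05. The median SE was 0.058. A gene with several elements was counted by the one with values on most arrays. The steps were tested on simulated data. Symbols came from the platform's table, updated through RefSeq (Drosophila assembly Release 6).

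The members and lists were chosen with earlier results of these data known. Named genes were the members, up to 8 called family genes per comparison by size, up to 4 called genes of each list by p, neighbours, Antp and ap, and the 5 genes most correlated with each member. Genes of the family beyond that number were named after their values were seen.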

Additional observations from a re-analysis of the deposited data

Results flagged for a closer look

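Of 27 groups of 4 arrays (3 genes in 9 groups), 1 held an array far from the others, where chance flags about 1 group in 20. Jhbp2 on array 51, with Oregon[R] in channel 1 and Antennapedia[73b] in channel 2, had a log2 ratio of 1.00, and the other 3 arrays of the group lay between 0.53 and 0.54. Without this array the difference of Jhbp2 in Antennapedia[73b] against Oregon[R] was -1.07, beside -1.10 with it.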

How the results depend on the processing

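The 9 strain differences of dyw, Jhbp1 and Jhbp2 moved by less than 1 SD of the direct arrays under all 52 alternatives each. This SD is that of single arrays, with the dye offset taken off, and is a wide measure. For Jhbp1 against Oregon[R] it was 0.19 and 0.23, beside differences of 0.18 and 0.19, so a fall to 0 would have gone unmarked. No stability is read from it, and the ranges are given instead. In the order Antennapedia[73b] against Oregon[R], apterous[56f] against Oregon[R] and Antennapedia[73b] against apterous[56f], the alternatives that leave out no single array gave -0.45 to -0.20, 0.74 to 1.09 and -1.41 to -1.07 for dyw, -1.18 to -1.02, -0.91 to -0.82 and -0.32 to -0.14 for Jhbp2, and 0.15 to 0.21, 0.10 to 0.28 and -0.07 to 0.05 for Jhbp1. Leaving out 1 array in turn gave -0.37 to -0.29, 0.88 to 0.95 and -1.29 to -1.20 for dyw, -1.11 to -1.07, -0.89 to -0.82 and -0.26 to -0.20 for Jhbp2, and 0.14 to 0.19, 0.15 to 0.22 and -0.04 to 0.02 for Jhbp1. Calls ended for Jhbp1 against Oregon[R] in 8 of 52 alternatives for Antennapedia[73b] and 7 of 52 for apterous[56f], for Jhbp2 between the mutant strains in 3 (no dye term, last 2 and even-numbered arrays), and for dyw in Antennapedia[73b] against Oregon[R] in 1 (odd-numbered arrays). For Jhbp1 these alternatives included the 8 direct arrays alone and the first spot alone in both comparisons. The other 4 called differences of dyw and Jhbp2 passed under all 52. These calls are a description, since the genes were chosen with these differences in view and all alternatives reuse the same arrays.

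Counts of calls depended on the number of arrays and spots used. Against 3277, 2335 and 2280 elements in the same order, the 8 direct arrays alone gave 1972, 715 and 1091, the last 2 arrays of each group 1597, 876 and 923, even-numbered arrays 1790, 834 and 1051, and odd-numbered arrays 1732, 1347 and 1205. Without a dye term apterous[56f] against Oregon[R] had 1382 and Antennapedia[73b] against apterous[56f] 1483, and with the first spot alone 1300 and 1247. In apterous[56f] against Oregon[R] the second spot alone gave 1406 and the first 2 arrays 1460. Leaving out 1 array gave 2992 to 3366, 1970 to 2362 and 2029 to 2318. Of the 8, 11 and 13 calls among the 19 other takeout family genes tested, 4, 3 and 5 fell among the 10 with a Jhbp number. This split was added after the data were seen. Of all elements, 22.0%, 15.7% and 15.3% were called in the same order. For the 19 genes, the 8 direct arrays alone gave 7 calls in apterous[56f] against Oregon[R], and leaving out 1 array gave 7 to 10, 11 and 12 to 14. Arrays were not paired across groups, since the array titles name no partner in the other orientation. The number of arrays and the 1-decimal rounding limit small differences such as those of Jhbp1.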
